A study of Mus musculus with 3 samples.

Results

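The distal ends of the mouse autosomes were taken as all 10 kb bins on chromosomes 1 to 19 that lie within 5 Mb of the last bin listed for their chromosome. This position rule, which used no measured value, gave 9446 bins of the 264399 bins listed in all, with 489 to 500 bins per end, and 9444 of them had a value in all 3 libraries. Of these, 4986 bins shared 1 base or more with a protein-coding gene (genic) and 4458 did not (intergenic). The measurement was the level of 5-hydroxymethylcytosine (5hmC), deposited as a fraction per bin and given here as a percent. Each group was 1 library of mouse cerebellum DNA. The groups were chronically sleep-deprived cerebellum by DDD-seq, control cerebellum by ACE-seq and control cerebellum by DDD-seq, and the last served as the comparison for the other two. Strain, age, sex and number of animals, the duration of the deprivation and the read depth behind a bin are not given in the sources used here. Header names for the DDD-seq values include the word "all", so these may be pools of runs, and they are printed as the authors' values. With 1 library per group no difference between libraries has a replicate check, and no test was made. The errors given are the standard error (SE) over the bins of a gene or an end, or the standard deviation (SD) over the 19 chromosomes. They describe scatter along the genome, not between animals.

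5hmC is formed when TET dioxygenases oxidise 5-methylcytosine. It is abundant in brain, where the bodies of many neuronal genes carry it and active promoters carry little. Both assays protect 5hmC by glucosylation, after which a deaminase converts the remaining cytosines, so that protected bases are read as cytosine. All autosomes of the mouse have the centromere next to one end, and the other end, described here, is the distal telomere-proximal one. The telomeric repeat arrays themselves lie beyond the listed bins.

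What the ends hold at the level of sequence was described from gene starts. RefSeq promoter sequences (GRCm38.p6) were available for 237 of the 277 protein-coding genes that had at least 5 bins and lay wholly inside an end, and for 10 of the 12 with the highest 5hmC. The 4 shown here are given as the 250 bases before the start of the gene, 5′ to 3′ on the gene's strand with every CG in capitals, because CG is the dinucleotide at which most 5hmC of mammalian DNA is found. Negr1 and Atf7 are among the 12 highest gene bodies, and Ccdc7b and Ccdc7a are the 2 lowest.
Negr1 at chr3:156561544-156561793, plus strand: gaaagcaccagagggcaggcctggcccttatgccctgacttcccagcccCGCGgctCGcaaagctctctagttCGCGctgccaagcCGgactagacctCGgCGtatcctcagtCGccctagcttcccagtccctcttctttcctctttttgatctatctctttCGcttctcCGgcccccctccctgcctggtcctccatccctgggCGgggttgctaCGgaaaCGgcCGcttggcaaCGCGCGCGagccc
Atf7 at chr15:102625465-102625714, minus strand: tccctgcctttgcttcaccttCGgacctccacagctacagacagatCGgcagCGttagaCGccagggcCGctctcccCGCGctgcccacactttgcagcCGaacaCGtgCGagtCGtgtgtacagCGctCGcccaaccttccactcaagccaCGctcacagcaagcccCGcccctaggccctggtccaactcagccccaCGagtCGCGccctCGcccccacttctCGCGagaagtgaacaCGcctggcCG
Ccdc7b at chr8:129066861-129067110, plus strand: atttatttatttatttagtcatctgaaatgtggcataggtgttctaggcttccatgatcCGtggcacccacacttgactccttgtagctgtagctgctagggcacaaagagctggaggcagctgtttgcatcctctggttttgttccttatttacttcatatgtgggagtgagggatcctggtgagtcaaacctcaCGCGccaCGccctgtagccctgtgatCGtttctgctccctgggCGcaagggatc
Ccdc7a at chr8:129065493-129065742, minus strand: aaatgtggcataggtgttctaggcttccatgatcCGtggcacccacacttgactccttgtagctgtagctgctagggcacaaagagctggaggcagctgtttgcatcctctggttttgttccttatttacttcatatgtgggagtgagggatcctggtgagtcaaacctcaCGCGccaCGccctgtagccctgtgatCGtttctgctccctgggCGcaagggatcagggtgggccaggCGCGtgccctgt
Of the 4 shown, the sequences before the highly hydroxymethylated gene bodies held 19 CG (Negr1) and 23 CG (Atf7). Those before the low ones held 6 CG (Ccdc7b) and 8 CG (Ccdc7a). Other named genes did not all follow this contrast. Among the 12 highest, Bicd1 and Mbnl2 had 8 and 10 CG, while Ubl3, Ttc3, Sp4 and Dyrk1a had 20, 27, 37 and 43. Galnt6, among the 6 lowest, had 22. Ccdc7b and Ccdc7a run in opposite directions and share a run of 225 identical bases in these windows (bases 26 to 250 of Ccdc7b and 1 to 225 of Ccdc7a). Reads from such copies may not be assigned to one of them. Both windows lie in the same bin, and whether the likeness extends into the other bins of these genes was not tested.

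The bin that holds the start of a gene was usually lower than the rest of that gene. For Negr1 the start bin had 1.59% in the sleep-deprived library, 2.15% in the ACE-seq library and 1.75% in the DDD-seq control, while its other bins averaged 3.93% (sleep-deprived), 3.81% (ACE-seq) and 3.86% (DDD-seq control). Atf7 had 1.09% (sleep-deprived), 1.83% (ACE-seq) and 1.39% (DDD-seq control) in its start bin and 3.34% (sleep-deprived), 3.68% (ACE-seq) and 3.92% (DDD-seq control) in its other bins. Both genes thus combined a CG-rich start of low level with a body of high level in every library. The start bin was compared over 191 genes inside the ends whose listed start lay within 1 kb of the gene border. Genes could share a start bin, as Ccdc7b and Ccdc7a do. The median start bin had 1.27% in the sleep-deprived library, 1.33% in the ACE-seq library and 1.31% in the DDD-seq control. The other bins had 1.48% (sleep-deprived), 1.47% (ACE-seq) and 1.49% (DDD-seq control). The start bin was the lower one in 72.8% (sleep-deprived), 70.2% (ACE-seq) and 74.3% (DDD-seq control) of these genes, against 70.4% (sleep-deprived), 65.4% (ACE-seq) and 67.4% (DDD-seq control) of 3964 genes outside the ends.

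Promoters inside the ends were slightly richer in CG than those of all autosomes. The 1098 promoters in the ends had a median of 12 CG in 250 bases, and 56.2% had at least 10, against a median of 10 CG and 51.3% among the 20085 autosomal promoters. The letters of the telomeric repeat unit (TTAGGG, or CCCTAA on the other strand) occurred in 9.29% of promoters in the ends and in 9.33% of all autosomal promoters. Among end genes with 10 or more CG upstream the median body level was 1.47% in the sleep-deprived library, 1.48% in the ACE-seq library and 1.50% in the DDD-seq control (146 genes), and with fewer CG it was 1.40% (sleep-deprived), 1.40% (ACE-seq) and 1.39% (DDD-seq control) over 45 genes. Outside the ends the medians of these classes lay further apart, with 1.62% (sleep-deprived), 1.58% (ACE-seq) and 1.63% (DDD-seq control) for the CG-rich class and 1.37% (sleep-deprived), 1.34% (ACE-seq) and 1.37% (DDD-seq control) for the other. The classes also differed in gene length, which was not adjusted for. In the ends the median length was 64.3 kb for the CG-rich class and 77.9 kb for the other, and outside it was 74.2 kb and 69.1 kb.

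Averaged over 5 Mb, the ends were close to the chromosome interiors where genes lie, and lower between genes. The interior is every autosomal bin outside the last and the first 5 Mb. Genic bins of the ends averaged 1.74% in the sleep-deprived library, 1.71% in the ACE-seq library and 1.74% in the DDD-seq control. In the interior the genic means were 1.76% (sleep-deprived), 1.71% (ACE-seq) and 1.76% (DDD-seq control). The differences between end and interior, -0.022 (sleep-deprived), -0.003 (ACE-seq) and -0.017 (DDD-seq control) percentage points, were smaller than the spread of that difference over chromosomes (SD 0.83 to 0.84, n = 19; 0.36 to 0.37 over the 18 chromosomes without chromosome 17). The genic value depended on the width taken and on the summary: it was -0.139 (sleep-deprived), -0.107 (ACE-seq) and -0.136 (DDD-seq control) points for ends of 2 Mb, and -0.119 (sleep-deprived), -0.095 (ACE-seq) and -0.114 (DDD-seq control) for ends of 10 Mb. As a difference of medians over bins at 5 Mb it was -0.073 (sleep-deprived), -0.053 (ACE-seq) and -0.065 (DDD-seq control). Intergenic bins of the ends averaged 1.32% (sleep-deprived), 1.24% (ACE-seq) and 1.30% (DDD-seq control), against 1.40% (sleep-deprived), 1.35% (ACE-seq) and 1.39% (DDD-seq control) in the interior. This difference of -0.086 (sleep-deprived), -0.106 (ACE-seq) and -0.090 (DDD-seq control) points was of the size of its spread over chromosomes (SD 0.124 sleep-deprived, 0.107 ACE-seq, 0.115 DDD-seq control).

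Counted by chromosome, most ends were lower than their own interior. In all 3 libraries the genic bins of 12 ends were lower, those of 6 ends (chromosomes 3, 5, 13, 14, 17 and 19) were higher, and 1 end differed in direction between libraries. For intergenic bins 14 ends were lower in all 3 libraries, 4 (chromosomes 1, 8, 14 and 17) were higher, and 1 was mixed. The direction for genes depended on how chromosomes were weighted. As a mean of the 19 chromosome means, the genic difference came to 0.098 points in the sleep-deprived library, 0.118 in the ACE-seq library and 0.095 in the DDD-seq control. Without chromosome 17, a choice made after seeing the data, the genic difference over bins was -0.101 (sleep-deprived), -0.082 (ACE-seq) and -0.097 (DDD-seq control) points.

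The distal ends held more genes than the opposite ends. Genic bins made up 52.8% of bins in the distal ends, 43.2% of the first 5 Mb listed next to the centromere and 46.6% of the interior, with 0.574, 0.470 and 0.501 protein-coding genes per bin. The 5 Mb next to the centromere had genic means of 1.76% in the sleep-deprived library, 1.72% in the ACE-seq library and 1.81% in the DDD-seq control, and intergenic means of 1.30% (sleep-deprived), 1.24% (ACE-seq) and 1.27% (DDD-seq control). At genes the distal ends were slightly lower than these in each library, and between genes slightly higher, by less than the spread of the difference over chromosomes (SD 0.82 to 0.89 points for genic and 0.18 to 0.22 for intergenic bins). The genic direction depended on the weighting here too. As a mean over chromosomes the genic difference was 0.097 (sleep-deprived), 0.102 (ACE-seq) and 0.047 (DDD-seq control) points.

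Within the ends, genic bins exceeded intergenic bins on 19 of 19 chromosomes in every library. They did so by 0.418 points in the sleep-deprived library, 0.467 in the ACE-seq library and 0.439 in the DDD-seq control, against 0.355 (sleep-deprived), 0.364 (ACE-seq) and 0.366 (DDD-seq control) in the interior. Without chromosome 17 the excess in the ends was 0.348 (sleep-deprived), 0.396 (ACE-seq) and 0.369 (DDD-seq control), so it no longer exceeded that of all interiors in the sleep-deprived library and was nearly equal to it in the DDD-seq control. The excess of genic bins was smallest on chromosome 10 (0.033 points sleep-deprived, 0.065 ACE-seq, 0.086 DDD-seq control) and largest on chromosome 17 (3.46 points sleep-deprived, 3.56 ACE-seq, 3.48 DDD-seq control). The end of chromosome 10 holds a cluster of olfactory receptor genes, which are chemosensory receptors of the nasal epithelium: 58 of the 71 Olfr genes inside the ends lie there. The 61 genic bins of that end with an Olfr gene averaged 1.11% (sleep-deprived), 1.22% (ACE-seq) and 1.26% (DDD-seq control), and its other 209 genic bins averaged 1.37% (sleep-deprived), 1.33% (ACE-seq) and 1.39% (DDD-seq control).

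The 19 ends differed from each other more at genes than between genes. Genic means had an SD over chromosomes of 0.793 points in the sleep-deprived library, 0.809 in the ACE-seq library and 0.793 in the DDD-seq control, against 0.110 (sleep-deprived), 0.107 (ACE-seq) and 0.108 (DDD-seq control) among the interiors of the same chromosomes. Chromosome 17 carried much of this: over the other 18 ends the genic SD was 0.361 (sleep-deprived), 0.368 (ACE-seq) and 0.356 (DDD-seq control). Intergenic means had an SD of 0.12 (sleep-deprived), 0.111 (ACE-seq) and 0.117 (DDD-seq control) points, against 0.062 (sleep-deprived), 0.059 (ACE-seq) and 0.066 (DDD-seq control) among interiors. Interiors average over many more bins than ends, which narrows their spread. The order of the ends was similar between libraries, more so at genes than between them. Across the 19 ends Spearman's rho was 0.961 to 0.981 for genic means and 0.826 to 0.905 for intergenic means, and Pearson's r was 0.998 to 0.999 for genic and 0.923 to 0.950 for intergenic means, given as a description of values that share the same genome positions.

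**Figure D1:**
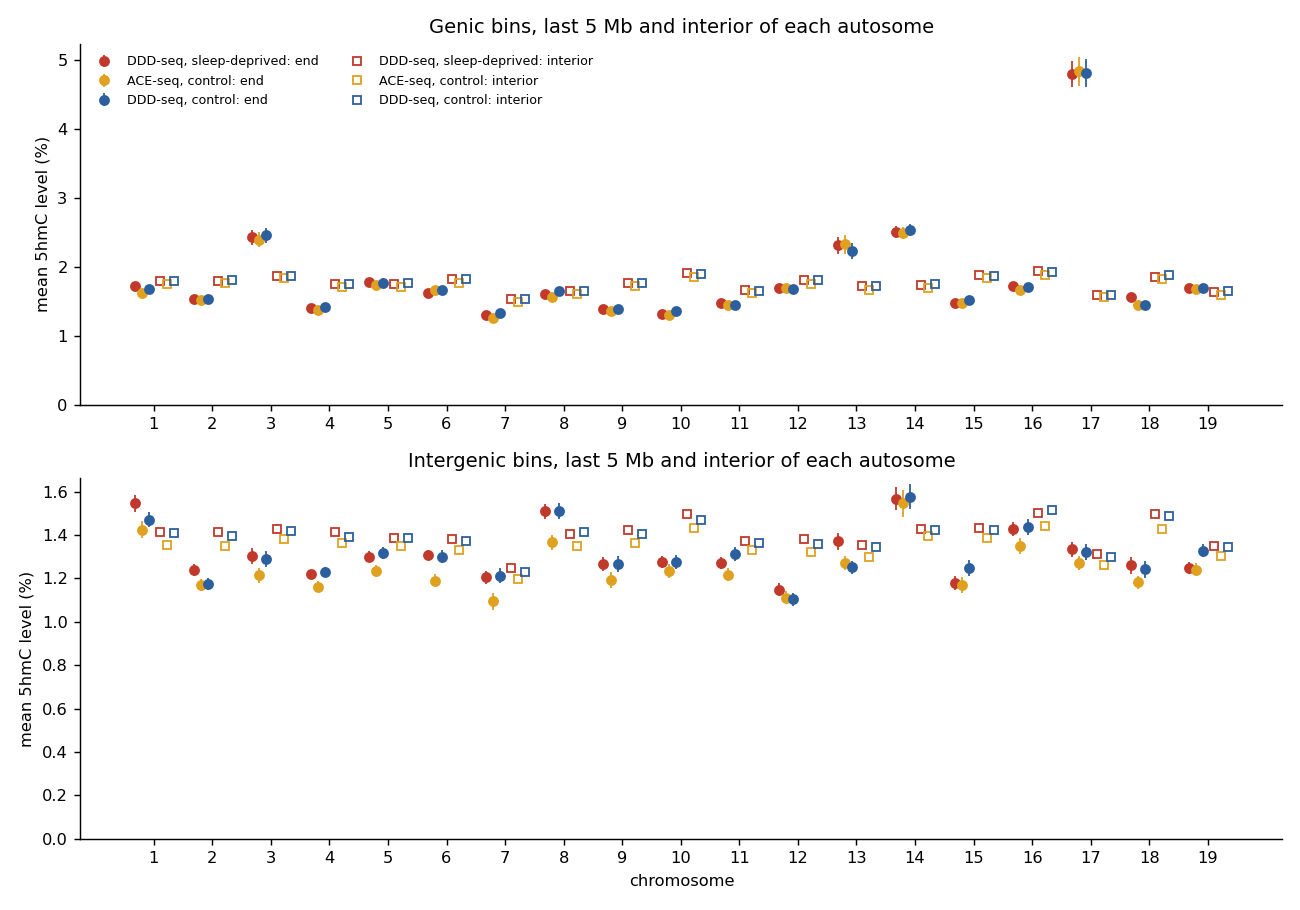
Mean 5hmC level (percent) of genic bins (top) and intergenic bins (bottom) for each autosome in the 3 libraries, with filled points for the last 5 Mb (bars, SE over bins) and open squares for the interior of the same chromosome. The genic end of chromosome 17 stands at 4.79% to 4.83%, above those of chromosomes 3, 13 and 14 at 2.23% to 2.53%.

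Chromosome 17 had the highest genic end, at 4.79% in the sleep-deprived library, 4.83% in the ACE-seq library and 4.80% in the DDD-seq control, while its interior had 1.59% (sleep-deprived), 1.56% (ACE-seq) and 1.60% (DDD-seq control). Chromosome 14 followed with 2.50% (sleep-deprived), 2.49% (ACE-seq) and 2.53% (DDD-seq control), chromosome 3 with 2.43% (sleep-deprived), 2.39% (ACE-seq) and 2.46% (DDD-seq control), and chromosome 13 with 2.31% (sleep-deprived), 2.33% (ACE-seq) and 2.23% (DDD-seq control). The plot of end and interior levels by chromosome shows that these 4 ends lay above all others in each library. At the low side stood chromosome 7, with 1.30% (sleep-deprived), 1.25% (ACE-seq) and 1.33% (DDD-seq control), and chromosome 10, with 1.31% (sleep-deprived), 1.30% (ACE-seq) and 1.36% (DDD-seq control) against 1.90% (sleep-deprived), 1.85% (ACE-seq) and 1.89% (DDD-seq control) in its interior. Between genes, chromosome 14 was highest (1.57% sleep-deprived, 1.55% ACE-seq, 1.58% DDD-seq control). The lowest intergenic end was that of chromosome 12 in both DDD-seq libraries (1.15% with sleep deprivation, 1.10% without) and that of chromosome 7 in the ACE-seq library (1.09%).

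Level varied with the distance from the last listed bin in a different way for each class. Intergenic bins were lowest in the last 0.5 Mb, at 1.19% in the sleep-deprived library, 1.14% in the ACE-seq library and 1.18% in the DDD-seq control, and reached at most 1.39% (sleep-deprived), 1.32% (ACE-seq) and 1.39% (DDD-seq control) in the bands further in. Genic bins had 1.82% (sleep-deprived), 1.81% (ACE-seq) and 1.81% (DDD-seq control) in the last 0.5 Mb and were lowest at 1.5 to 2.0 Mb, with 1.48% (sleep-deprived), 1.45% (ACE-seq) and 1.48% (DDD-seq control). The outermost band was therefore the lowest of the 10 between genes, but not at genes. Its genic bins include all of Bicd1 and part of Fgf14, both among the 12 highest genes. The genic mean of this band is not given here without them, so the contrast between the classes may rest on these genes. In the innermost band, at 4.5 to 5.0 Mb, the genic mean was 1.81% (sleep-deprived), 1.77% (ACE-seq) and 1.83% (DDD-seq control), and without chromosome 17 it was 1.48% (sleep-deprived), 1.44% (ACE-seq) and 1.50% (DDD-seq control).

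**Figure D2:**
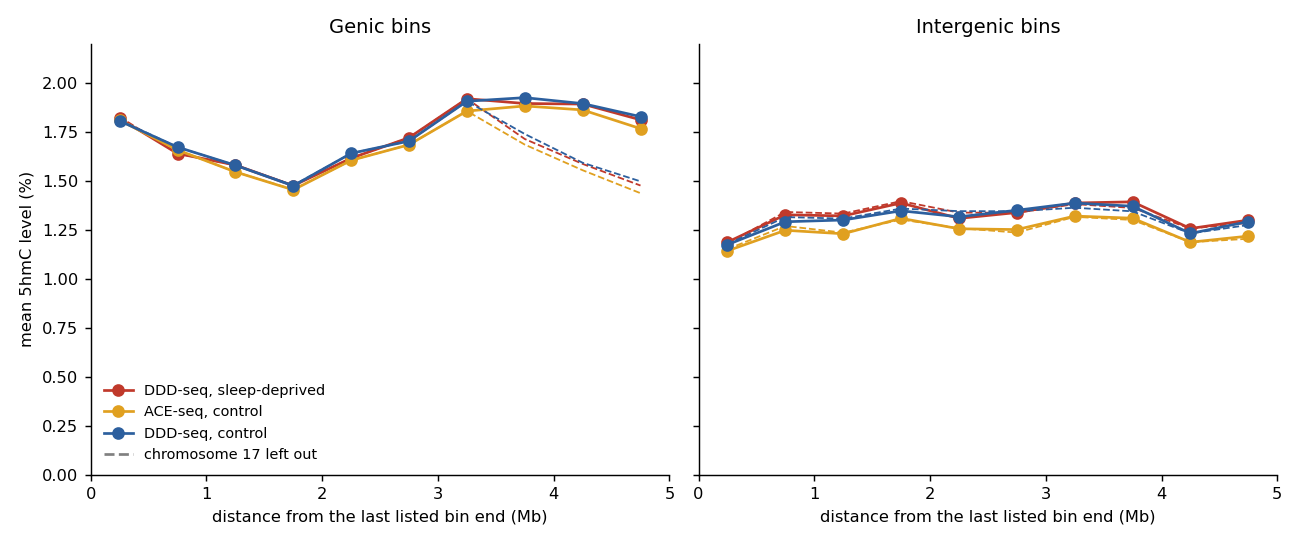
Mean 5hmC level (percent) in 0.5 Mb bands against distance from the last listed bin (Mb) for genic bins (left) and intergenic bins (right), with 1 line per library and dashed lines for the ends without chromosome 17. The dashed genic lines fall below the solid ones beyond 3.5 Mb, and the intergenic level is lowest in the last 0.5 Mb.

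The last 100 kb held 70 genic and 116 intergenic bins. The genic bins had 1.49% in the sleep-deprived library, 1.72% in the ACE-seq library and 1.57% in the DDD-seq control, and the intergenic bins had 1.22% (sleep-deprived), 1.23% (ACE-seq) and 1.24% (DDD-seq control). The highest outermost 100 kb was that of chromosome 6, whose 10 bins were all genic, with 2.40% (sleep-deprived), 2.74% (ACE-seq) and 2.69% (DDD-seq control). The lowest was that of chromosome 5, with 0.910% (sleep-deprived), 1.03% (ACE-seq) and 1.04% (DDD-seq control).

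Most gene bodies inside the ends were ordinary. The 277 genes of at least 5 bins had a median of 1.45% in the sleep-deprived library, 1.42% in the ACE-seq library and 1.45% in the DDD-seq control, against 1.53% (sleep-deprived), 1.49% (ACE-seq) and 1.54% (DDD-seq control) for 6097 genes outside the ends. A level above 3% in all 3 libraries was found for 11 of the 277 (3.97%) and for 4.40% of the genes outside. Genes of 100 kb or more made up 8.06% of the 1092 protein-coding genes wholly inside an end and 11.4% of those outside.

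The 12 highest gene bodies held most of the high bins at genes. Of the genic end bins, 287 (5.76%) were above 3% in all 3 libraries, against 5.21% in the interior, and 223 of the 287 (77.7%) lay in these 12 genes. The genes were picked for the level of their bins in the same libraries, so a large share follows in part from the choice. Between genes, 12 end bins (0.269%) passed the same level in all libraries, against 0.577% in the interior.

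Fgf14, whose product binds voltage-gated sodium channels and is mutated in a spinocerebellar ataxia, was among the highest. Its 71 bins on chromosome 14 had 4.38% ± 0.27 in the sleep-deprived library, 4.47% ± 0.24 in the ACE-seq library and 4.55% ± 0.25 in the DDD-seq control (SE over bins). Its level was uneven along the gene: windows of 100 kb from the border with the lower coordinate had 3.12% (sleep-deprived), 3.38% (ACE-seq) and 4.14% (DDD-seq control) at 0 to 100 kb, and 6.62% (sleep-deprived), 6.02% (ACE-seq) and 6.18% (DDD-seq control) at 600 to 700 kb. Negr1, a neuronal adhesion protein of the IgLON family, had 3.90% ± 0.16 (sleep-deprived), 3.79% ± 0.16 (ACE-seq) and 3.83% ± 0.16 (DDD-seq control) over 76 bins of chromosome 3. Both genes lay above their flanks in every library: the flanking 100 kb had 1.46% to 1.61% for Fgf14 and 1.44% to 1.84% for Negr1.

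The other 8 high genes described had between 2.81% and 4.25%. Pan3, a subunit of a poly(A) nuclease, had 3.97% ± 0.39 in the sleep-deprived library, 4.18% ± 0.43 in the ACE-seq library and 4.25% ± 0.56 in the DDD-seq control (13 bins). Ubl3, a membrane-anchored ubiquitin-like protein, had 3.67% ± 0.77 (sleep-deprived), 3.29% ± 0.70 (ACE-seq) and 3.54% ± 0.78 (DDD-seq control) over 6 bins of the same chromosome 5. Mbnl2, a splicing regulator, had 3.29% ± 0.33 (sleep-deprived), 3.45% ± 0.44 (ACE-seq) and 3.38% ± 0.37 (DDD-seq control) over 17 bins. These values overlap within their SE, so their order among themselves is not resolved. Bicd1, an adaptor of the dynein motor, had 3.27% (sleep-deprived), 3.37% (ACE-seq) and 3.10% (DDD-seq control), Dyrk1a, a protein kinase, had 3.15% (sleep-deprived), 3.22% (ACE-seq) and 3.23% (DDD-seq control), and Ttc3, a ubiquitin ligase, had 3.19% (sleep-deprived), 3.13% (ACE-seq) and 3.19% (DDD-seq control). The transcription factor genes Atf7 and Sp4 had 3.14% (sleep-deprived), 3.51% (ACE-seq) and 3.69% (DDD-seq control), and 2.81% (sleep-deprived), 3.29% (ACE-seq) and 3.21% (DDD-seq control). Over the 10 genes described the ratio of gene body to flanks was between 1.41 and 3.61.

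**Figure D3:**
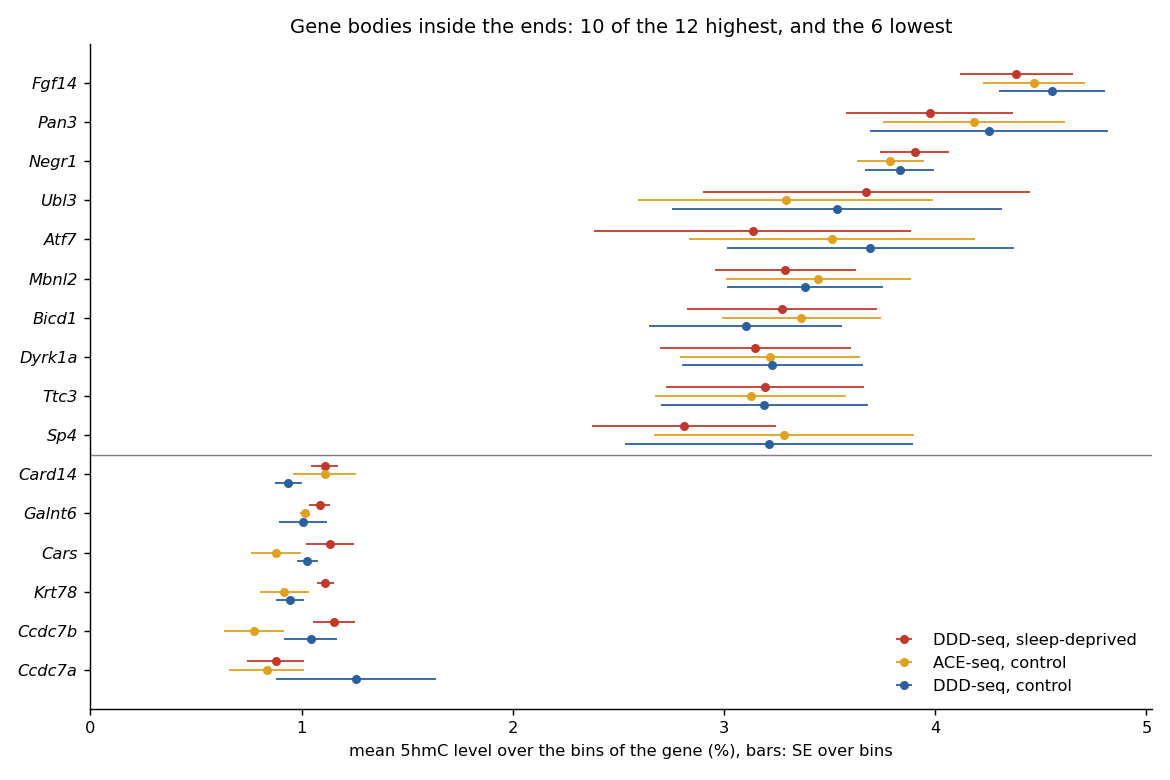
Mean 5hmC level (percent) over the bins of 10 of the 12 highest and of the 6 lowest protein-coding genes inside the ends, with 1 point per library and bars for the SE over bins. The 10 high genes lie between 2.81% and 4.55%, and the 6 lowest lie between 0.776% and 1.26%.

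The 6 lowest gene bodies had between 0.776% and 1.26% in the 3 libraries. Card14, a scaffold of NF-kB signalling in keratinocytes, had 1.11% in the sleep-deprived library, 1.11% in the ACE-seq library and 0.937% in the DDD-seq control. Krt78, a keratin, had 1.11% (sleep-deprived), 0.919% (ACE-seq) and 0.943% (DDD-seq control). Galnt6, which starts O-linked glycosylation, had 1.09% (sleep-deprived), 1.01% (ACE-seq) and 1.01% (DDD-seq control), and Cars, the cytosolic cysteinyl-tRNA synthetase, had 1.13% (sleep-deprived), 0.878% (ACE-seq) and 1.03% (DDD-seq control). Ccdc7b had 1.15% (sleep-deprived), 0.776% (ACE-seq) and 1.04% (DDD-seq control), and Ccdc7a had 0.878% (sleep-deprived), 0.834% (ACE-seq) and 1.26% (DDD-seq control). All 6 were below the median end gene in each library, and the 10 high genes were above it. This largely follows from the choice, because the genes were picked by their mean over the same 3 libraries.

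Without the high genes described, the raised ends of chromosomes 3 and 14 came closer to the others. On chromosome 3 the genic mean without Negr1 was 1.50% in the sleep-deprived library, 1.51% in the ACE-seq library and 1.59% in the DDD-seq control. On chromosome 14 it was 1.93% (sleep-deprived), 1.89% (ACE-seq) and 1.91% (DDD-seq control) without Fgf14 and Mbnl2, still above the mean over all genic end bins. These genes were picked for their level, so the direction of these shifts is fixed by the choice.

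Several long neuronal genes in the ends were not high. Ptprn2, a receptor phosphatase of secretory vesicles with 80 bins, had 1.78% in the sleep-deprived library, 1.72% in the ACE-seq library and 1.75% in the DDD-seq control. Dscam, an adhesion molecule of neuronal self-avoidance with 60 bins, had 1.86% (sleep-deprived), 1.78% (ACE-seq) and 1.83% (DDD-seq control). Shank2, a scaffold of excitatory synapses with 46 bins, had 1.55% (sleep-deprived), 1.40% (ACE-seq) and 1.54% (DDD-seq control). Rbfox3, whose product is the neuronal nuclear antigen NeuN, had 1.98% (sleep-deprived), 1.84% (ACE-seq) and 1.94% (DDD-seq control) over 44 bins, and Prdm16 had 1.19% (sleep-deprived), 1.14% (ACE-seq) and 1.20% (DDD-seq control) over 33. Ptprn2, which has more bins than Negr1, thus had less than its level in each library. The mean over all genic end bins was 1.74% (sleep-deprived), 1.71% (ACE-seq) and 1.74% (DDD-seq control). Ptprn2, Dscam and Rbfox3 were above that mean in each library, and Shank2 and Prdm16 were below it.

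Classed by the longest gene in a bin, the ends were lower than the interior except in the longest class. Bins whose longest gene was under 20 kb had 1.24% in the sleep-deprived library, 1.23% in the ACE-seq library and 1.25% in the DDD-seq control, against 1.27% (sleep-deprived), 1.25% (ACE-seq) and 1.28% (DDD-seq control) in the interior. At 100 to 500 kb the values were 1.79% (sleep-deprived), 1.75% (ACE-seq) and 1.78% (DDD-seq control), against 1.91% (sleep-deprived), 1.87% (ACE-seq) and 1.92% (DDD-seq control). At 500 kb or more they were 2.96% (sleep-deprived), 2.92% (ACE-seq) and 2.96% (DDD-seq control) in the ends and 2.06% (sleep-deprived), 2.0% (ACE-seq) and 2.05% (DDD-seq control) in the interior. Without chromosome 17 the ends had 2.48% (sleep-deprived), 2.43% (ACE-seq) and 2.48% (DDD-seq control) over 473 bins of this class. Fgf14 (71 bins) and Negr1 (76 bins), both among the 12 highest genes, are part of it. Ptprn2 and Dscam, also of this length, were below the interior mean of the class in each library. The raised mean thus rests in part on genes named for their level, and it is not given here without them. Bins with 2 protein-coding genes had 1.29% (sleep-deprived), 1.28% (ACE-seq) and 1.32% (DDD-seq control) in the ends, against 1.43% (sleep-deprived), 1.42% (ACE-seq) and 1.45% (DDD-seq control) in the interior.

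Of the 20501 autosomal protein-coding genes measured, 1092 (5.33%) lay wholly inside an end, which is the background for the gene lists. Of 18 measured telomere maintenance genes 1 was inside an end: Rtel1, a helicase that unwinds telomeric loops, with 1.17% in the sleep-deprived library, 1.22% in the ACE-seq library and 1.36% in the DDD-seq control. Of 25 DNA methylation and demethylation genes 2 were inside. Smug1, a uracil-DNA glycosylase, had 0.917% (sleep-deprived), 0.875% (ACE-seq) and 1.28% (DDD-seq control), and Mbd6, a protein with a methyl-CpG-binding-like domain, had 1.25% (sleep-deprived), 0.998% (ACE-seq) and 1.34% (DDD-seq control), each over 2 bins. No TET or DNMT gene lay in an end. All 3 genes were below the median end gene in each library. That median covers only genes of at least 5 bins, and Smug1 and Mbd6 are shorter. End bins whose longest gene was under 20 kb averaged 1.24% (sleep-deprived), 1.23% (ACE-seq) and 1.25% (DDD-seq control).

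The symbol list of neuronal ion channels and receptors held 284 measured genes, of which 20 lay inside an end and 13 had at least 5 bins. The median of the 13 was 1.41% in the sleep-deprived library, 1.44% in the ACE-seq library and 1.53% in the DDD-seq control, near the median of all end genes. One of the 13, Trp73, entered by its letters and is a transcription factor of the p53 family. High among those described were some potassium channel genes: Kcnk1 had 2.55% (sleep-deprived), 2.71% (ACE-seq) and 2.95% (DDD-seq control), Kcnh1 had 2.27% (sleep-deprived), 1.97% (ACE-seq) and 2.12% (DDD-seq control), and Kcnj6 had 2.17% (sleep-deprived), 2.19% (ACE-seq) and 2.15% (DDD-seq control). Potassium channel genes were not high as a class. Kcnq1 had 1.46% (sleep-deprived), 1.37% (ACE-seq) and 1.50% (DDD-seq control), and Kcnj15 had 1.26% (sleep-deprived), 1.10% (ACE-seq) and 1.53% (DDD-seq control). Scn8a, the sodium channel of axon initial segments in cerebellar and other neurons, had 2.06% (sleep-deprived), 2.03% (ACE-seq) and 2.0% (DDD-seq control). Scn10a and Scn11a, sodium channels of sensory neurons, had 1.25% (sleep-deprived), 1.15% (ACE-seq) and 1.20% (DDD-seq control), and 1.22% (sleep-deprived), 1.32% (ACE-seq) and 1.28% (DDD-seq control). The sodium channel used in brain was therefore above its sensory relatives in each library.

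Of 187 measured adhesion and guidance genes 6 lay inside an end, 5 of them with at least 5 bins and a median of 1.86% in the sleep-deprived library, 1.78% in the ACE-seq library and 1.81% in the DDD-seq control. Plxna2, a semaphorin receptor, had 2.09% (sleep-deprived), 1.80% (ACE-seq) and 1.81% (DDD-seq control). Cdh4, a classical cadherin, had 1.53% (sleep-deprived), 1.38% (ACE-seq) and 1.44% (DDD-seq control), and Cdh26 had 1.30% (sleep-deprived), 1.58% (ACE-seq) and 1.19% (DDD-seq control). Cdhr5, an intestinal cadherin with 2 bins, had 1.16% (sleep-deprived), 1.28% (ACE-seq) and 1.32% (DDD-seq control).

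Families with many copies, where reads may not be assigned to single genes, had 127 of their 2209 measured members inside an end. Their median was 1.13% in the sleep-deprived library, 1.13% in the ACE-seq library and 1.14% in the DDD-seq control. The 71 Olfr genes, on chromosomes 7 and 10, had a median of 0.937% in the sleep-deprived library, 1.12% in the ACE-seq library and 1.08% in the DDD-seq control. The 26 Krt genes, all in the keratin cluster of chromosome 15, had 1.17% (sleep-deprived), 1.09% (ACE-seq) and 1.12% (DDD-seq control). Outside the ends the medians were 1.06% (sleep-deprived), 1.02% (ACE-seq) and 1.06% (DDD-seq control) for 1030 Olfr genes and 1.23% (sleep-deprived), 1.20% (ACE-seq) and 1.24% (DDD-seq control) for 30 Krt genes. Of 53 markers of cerebellar cell types 5 lay inside an end: Pcp4 (Purkinje cells) had 1.64% (sleep-deprived), 1.91% (ACE-seq) and 1.58% (DDD-seq control), Mobp (oligodendrocytes) had 1.15% (sleep-deprived), 1.15% (ACE-seq) and 1.39% (DDD-seq control), and Flt1 (endothelium) had 1.21% (sleep-deprived), 1.15% (ACE-seq) and 1.17% (DDD-seq control). Cx3cr1 (microglia) had 1.24% (sleep-deprived), 1.05% (ACE-seq) and 1.22% (DDD-seq control), and Zic2 (granule cells) had 0.938% (sleep-deprived), 1.12% (ACE-seq) and 0.889% (DDD-seq control). A 5hmC level is not a measure of expression, and in whole tissue fewer cells with the mark and fewer marks per cell cannot be told apart.

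Sleep deprivation was compared with control by DDD-seq, bin by bin. The ends averaged 1.54% with sleep deprivation and 1.54% without, a difference of 0.004 points (SD over 19 ends 0.037). Of the end bins, 353 (3.74%) were higher in the sleep-deprived library by more than 1 point, against 4.51% of all autosomal bins, and 360 (3.81%) were lower by as much, against 4.48%. Both directions were thus balanced. At genes the shares, 3.75% higher and 4.09% lower, were near those of genic interior bins (3.93% and 3.98%). Between genes they were rarer than in the interior, with 3.72% higher and 3.50% lower against 5.02% and 4.95%. By chromosome the difference ran between -0.048 points (chromosome 15) and 0.110 points (chromosome 13), with 8 ends higher and 11 lower.

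At the level of gene bodies, 138 of the 277 genes were higher in the sleep-deprived library and 139 lower. The larger differences were more often downward, as they were over all autosomal genes. A difference of more than 0.25 points was found upward in 13 genes (4.69%), against 6.14% of all autosomal genes of at least 5 bins, and downward in 25 genes (9.03%), against 7.43%. The largest positive difference was that of Esyt2, a lipid transfer protein of contacts between endoplasmic reticulum and plasma membrane: 2.74% ± 0.46 with sleep deprivation and 1.99% ± 0.30 without, a difference of 0.76 ± 0.25 (SE over 13 bins), higher in 11 of 13 bins. Next were Cr2, a complement receptor, with 1.84% (sleep-deprived) and 1.35% (control), Cd226, an immune adhesion receptor, with 1.84% (sleep-deprived) and 1.35% (control), and Morc3, a nuclear ATPase, with 1.92% (sleep-deprived) and 1.44% (control). The largest negative difference was that of Stk38l, a kinase of the NDR family, with 1.93% ± 0.28 (sleep-deprived) and 2.64% ± 0.57 (control), a difference of -0.71 ± 0.30, higher in 0 of 6 bins. Atf7 followed with -0.56 ± 0.21, higher in 3 of 11 bins. Syt14, of the synaptotagmin family, had 2.28% (sleep-deprived) and 2.74% (control), and Ppfia1, a liprin of synapses and adhesions, had 1.76% (sleep-deprived) and 2.19% (control) and was higher in 1 of 9 bins. As the median of the differences in single bins it was -0.238 points for Ppfia1, against -0.430 as a mean, and 0.301 for Morc3, against 0.481.

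Negr1 and Fgf14, both highly hydroxymethylated, differed little between these libraries. The difference was 0.071 ± 0.114 points for Negr1 and -0.17 ± 0.19 for Fgf14. Of the 13 ion channel and receptor genes 0 were higher and 2 lower by more than 0.25 points: Kcnk1 (-0.40 ± 0.25) and Kcnj15 (-0.27 ± 0.11). Of the 5 adhesion genes Plxna2 was higher by 0.27 ± 0.15 and 0 were lower. No telomere maintenance gene or cell type marker of at least 5 bins passed 0.25 points in this comparison. Over all autosomal genes of at least 5 bins 6.14% were higher and 7.43% lower by as much. Counts this small are not a result about these lists.

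ACE-seq and DDD-seq were compared on control cerebellum, with the DDD-seq control again as the second library, so both comparisons share it. The ends averaged 1.49% by ACE-seq and 1.54% by DDD-seq, a difference of -0.044 points (SD over 19 ends 0.033), and ACE-seq was lower at 17 of 19 ends. The difference in the interior was also -0.044 points, lower on 19 of 19 chromosomes. In the ends it was -0.031 at genes and -0.059 between genes. By more than 1 point, 384 end bins (4.07%) were higher by ACE-seq, against 4.8% of all autosomal bins, and 467 (4.94%) were lower, against 6.06%. Among the ends the difference ran between -0.109 points (chromosome 8) and 0.040 points (chromosome 13).

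**Figure D4:**
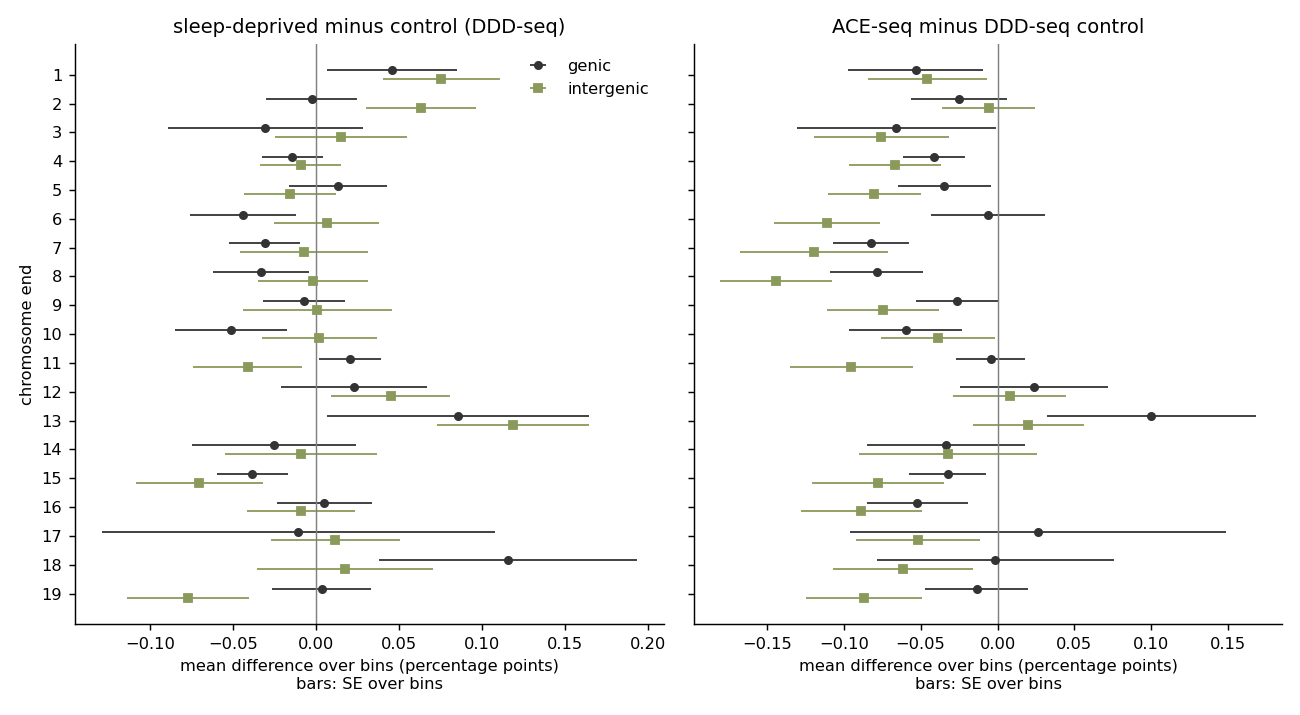
Mean difference (percentage points) over the bins of each of the 19 ends, sleep-deprived minus control by DDD-seq (left) and ACE-seq minus DDD-seq in control (right), with circles for genic and squares for intergenic bins and bars for the SE over bins. In the right panel most points lie left of 0 and the genic point of chromosome 13 lies at 0.10.

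Of the 277 genes 107 were higher by ACE-seq and 170 lower. By more than 0.25 points 20 genes (7.22%) were higher, against 5.56% of all autosomal genes of at least 5 bins, and 36 (13%) were lower, against 12%. The largest positive difference was again that of Esyt2, with 2.53% by ACE-seq and 1.99% by DDD-seq (0.55 ± 0.28), so the DDD-seq control was the lowest of the 3 libraries for this gene. Cbx5, which encodes the heterochromatin protein HP1 alpha, had 2.06% (ACE-seq) and 1.51% (DDD-seq), Ergic2, of early secretory transport, had 1.90% (ACE-seq) and 1.39% (DDD-seq), and Slc6a20b, an amino acid transporter, had 1.49% (ACE-seq) and 1.0% (DDD-seq). The largest negative difference was that of Ankrd13c, with 1.83% (ACE-seq) and 2.50% (DDD-seq), a difference of -0.67 ± 0.26. Itgb8, an integrin subunit, had 1.48% (ACE-seq) and 2.0% (DDD-seq), Rbms2, an RNA-binding protein, had 1.21% (ACE-seq) and 1.68% (DDD-seq), and the protease gene Bace2 had 1.22% (ACE-seq) and 1.69% (DDD-seq). Some were smaller as the median of the differences in single bins: 0.074 points for Ergic2 (0.512 as a mean), 0.313 for Esyt2, 0.303 for Slc6a20b, -0.354 for Ankrd13c and -0.318 for Rbms2. For Itgb8 it was -0.568 by the median and -0.518 by the mean, which puts it beyond Ankrd13c by the median.

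In this comparison, of the 13 ion channel and receptor genes 2 were higher by ACE-seq by more than 0.25 points, and 1 was lower, Kcnj15 (-0.43 ± 0.14). Of the 5 adhesion genes Cdh26 was higher by 0.39 ± 0.14 and 0 were lower. Pcp4 was the 1 of 3 cell type markers of at least 5 bins beyond 0.25 points, with 0.33 ± 0.34. Over all autosomal genes of at least 5 bins 5.56% were higher and 12% lower by ACE-seq. These small counts too are not a result about the lists.

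Single bins agreed less between libraries than the means of the ends, each of which averages many bins. Over end bins Pearson's r was 0.772 between both DDD-seq libraries, 0.768 between the sleep-deprived and the ACE-seq library and 0.764 between ACE-seq and DDD-seq control, and Spearman's rho for the same pairs was 0.518, 0.495 and 0.488. In the interior r for these pairs was 0.731, 0.673 and 0.658. Bins are neighbours on shared chromosomes and are no replicates, and the few very high bins weigh on r. Bins listed at exactly 0 numbered 20 in the sleep-deprived library, 47 in the ACE-seq library and 57 in the DDD-seq control, and 4 intergenic end bins were at 0 in all 3. No end bin exceeded 20% in any library.

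Some single bins of high level lay outside long genes. The intergenic end bin with the highest mean, chr14:123190001-123200000, overlaps the long noncoding RNA gene Gm33906 and had 3.31% in the sleep-deprived library, 6.09% in the ACE-seq library and 4.86% in the DDD-seq control. The bin chr13:118690001-118700000, in the long noncoding RNA gene Gm16263, had 4.85% (sleep-deprived), 3.99% (ACE-seq) and 4.48% (DDD-seq control). The bin chr1:194520001-194530000 overlaps no listed gene, lies 89.8 kb from Plxna2 and had 4.93% (sleep-deprived), 3.89% (ACE-seq) and 5.21% (DDD-seq control). Olfr825, on chromosome 10 and within 1 bin, had 5.47% (sleep-deprived), 5.49% (ACE-seq) and 5.80% (DDD-seq control), above the median of its family given earlier. High values were not always shared: each of 2 adjacent intergenic bins of chromosome 18 was listed at 11.1% in 1 library and at 0 in the other two.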

How the data were processed

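5hmC was measured in mouse cerebellum DNA in 3 libraries. The authors deposited 1 value per 10 kb bin and library, a fraction of 0 to 1 read as protected. The cytosine context and coverage behind it are not given in the sources used here, so depth is unknown and no counting interval can be given. The submitters' processing notes name the tools FastQC, Trimmomatic and Bismark and, as genome, hg19, which is a human build. The bins are mouse chromosomes: the last bin of each autosome ends 1.33 to 132.3 kb after its last RefSeq gene in GRCm38.p6, and with genes shifted by 1 Mb the genic minus intergenic difference in the ends went away (-0.058 points for sleep-deprived, -0.038 for ACE-seq and -0.020 for DDD-seq control). The bins were therefore read as GRCm38.

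The same protocol text stands on all 3 samples, the ACE-seq one included. Fractions were multiplied by 100. Bins with a value in all 3 libraries were used, and those overlapping a protein-coding gene by 1 base were genic. Gene levels are means over bins, for genes wholly inside an end. Named are the 12 highest and 6 lowest genes of at least 5 bins, the 4 largest differences in each direction of each comparison, and members of the lists; Ptprn2, Shank2, Rbfox3, Prdm16 and single bins were chosen after their values were seen. Some genes that the rule names are not reported here, though they stay in every mean and count. Members, lists and thresholds were chosen with earlier results of these data known. Alternatives covered the end width, the genic rule, the mean or median, bins at 0, the weighting of chromosomes and the thresholds. The calculation was tested on simulated data. Python 3.11.15, numpy 2.4.6 and pandas 2.3.3 were used.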

Additional observations from a re-analysis of the deposited data

How the results depend on the processing

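Of the recalculations of the end-level results, 158 kept their direction and moved by less than 1 SD over chromosomes (for counts and shares, by less than 1.5 times), 8 moved further and 7 reversed. That SD is wide for genic bins: their end minus interior difference over ends of 2 Mb, over ends of 10 Mb and by medians, given in the report, stayed within it. For intergenic bins the difference was -0.098 (sleep-deprived), -0.116 (ACE-seq) and -0.114 (DDD-seq control) points over 2 Mb, -0.074 (sleep-deprived), -0.088 (ACE-seq) and -0.077 (DDD-seq control) over 10 Mb and -0.058 (sleep-deprived), -0.073 (ACE-seq) and -0.050 (DDD-seq control) by medians. The excess of genic over intergenic bins in the ends was 0.158 (sleep-deprived), 0.209 (ACE-seq) and 0.173 (DDD-seq control) by medians. The genic difference between ends and interior reversed when chromosomes were weighted equally (0.0982 points in the sleep-deprived library, 0.118 by ACE-seq and 0.0955 in the DDD-seq control) and, by ACE-seq, when bins had to be covered by genes to at least 50% (0.0123). The sleep-deprived minus control difference over the ends was -0.00148 points without bins at 0 and -0.000342 with the interior difference subtracted, which also turned the ACE-seq minus DDD-seq difference (0.000370). These reversed values are smaller than the SD over chromosomes, and the cause was not tested. With a threshold of 0.5 points in place of 1, 14.7% of end bins were higher after sleep deprivation and 14.3% lower, and 14.9% higher and 18.4% lower by ACE-seq; with 2 points the shares were 0.455% and 0.519%, and 0.625% and 0.487%. Of the values of single genes, 183 recalculations stayed within the limits, 29 moved and 0 reversed. Leaving out chromosome 17 was chosen after seeing the data. No paired analysis was possible because each group has 1 library, and no replicate could be left out. Depth is unknown, so a low or zero bin cannot be told from one with few reads.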
